A study of Mus musculus with 6 samples.

Results

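Laminins, nidogens and perlecan are the non-collagen proteins of basement membranes, the thin matrix sheets beneath epithelia and around vessels, nerves and muscle fibres. The genes described are the 10 rows of the deposited count table, among 55401, whose symbol is Lama1, Lama2, Lama4, Lama5, Lamb1, Lamb2, Lamc1, Nid1, Nid2 or Hspg2. They were picked by name and not by a cut on their values, though with earlier results of these data known. Bulk RNA sequencing was done on inner ear from mutant mice (Pou3f4 KO, genotype Pou3f4y/-, 3 libraries) and from wild-type mice (WT, 3 libraries). Pou3f4 lies on the X chromosome and encodes a POU-domain protein that controls transcription in otic mesenchyme. The genotypes were compared to look for a mechanism of pigmentation in the mutant ear. The labels name the tissue as inner ear with cells of every type, add the words interstitial cells in another field, and give no age, sex, strain or dissection. They do not say how the allele was made, nor whether each library came from a separate animal, so p-values measure only the spread between these samples.

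Laminins are trimers of an alpha, a beta and a gamma chain. They bind integrins and dystroglycan on the cell surface, where many of them polymerise into a network. Nidogens bridge the laminin network, through its gamma 1 chain, to the network of type IV collagen, and perlecan, a large heparan sulphate proteoglycan encoded by Hspg2, binds both networks. In the cochlea such sheets lie under the sensory epithelium, around the capillaries of the stria vascularis and around the Schwann cells of the auditory nerve.

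Library totals were 18409409 to 23323953 counts, a count of 0 allowed up to 0.131 to 0.168 CPM (counts scaled to a common library size with TMM factors; this limit covers counting error only), and each of the 10 genes held at least 156 counts in every library. Pou3f4 held 28 to 45 counts in the KO libraries, against 1044, 2140 and 2233 in WT replicates 1 to 3. In CPM it stood at 58.3, 111.5 and 113.5 in WT replicates 1 to 3, so WT replicate 1 was the lowest WT library. Markers of inner ear cells were found in every library, with summed levels of 971 to 1047 CPM in KO and of 919.6, 2253 and 1981 CPM in WT replicates 1 to 3. Sex-linked reads went against a hemizygous label, since KO replicates 2 and 3, like WT replicates 1 and 2, held Xist (9143 to 15783 counts) and no reads of 4 Y-linked genes. KO replicate 1 and WT replicate 3 held 4545 and 3160 Y-linked reads. WT replicate 1 stood apart from the other libraries in most of these genes, so results are given with and without it. Its Pearson correlations with WT replicates 2 and 3 were 0.944 and 0.962, and WT replicates 2 and 3 correlated at 0.971. WT replicate 2 correlated at 0.980 to 0.986 with the KO libraries, above its values with WT replicates 1 and 3.

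None of the 10 genes passed an adjusted p of 0.05 with edgeR's quasi-likelihood test, where 0.396% of the 19687 genes tested were called, nor without WT replicate 1, where 9.06% were. All 10 passed the filter on low counts. Fold changes were below 0 (lower in KO) for 9 of the 10, against 51.0% of all genes tested, with a median log2 fold change of −0.43 over the 10 and −0.01 over all genes. At an unadjusted p under 0.05 there were 2 of the 10, Lamc1 and Lama1, both lower in KO, where 19.6% of all genes, and 10.9% in that direction, were past that value. The libraries of the genotypes did not overlap for 3 of the 10, Lamb1, Lamc1 and Lama1, all below WT in KO, where 12.7% of all genes lay wholly below and 27.7% did not overlap in either direction. Without WT replicate 1 the same 3 genes did not overlap, beside 47.0% of all genes (22.8% wholly below). In that fit 6 of the 10 fold changes were below 0, against 50.5% of all genes. The median was −0.17 over the 10 and −0.0035 over all genes. Fewer cells of a type and less RNA per cell cannot be told apart in bulk samples.

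**Figure D1:**
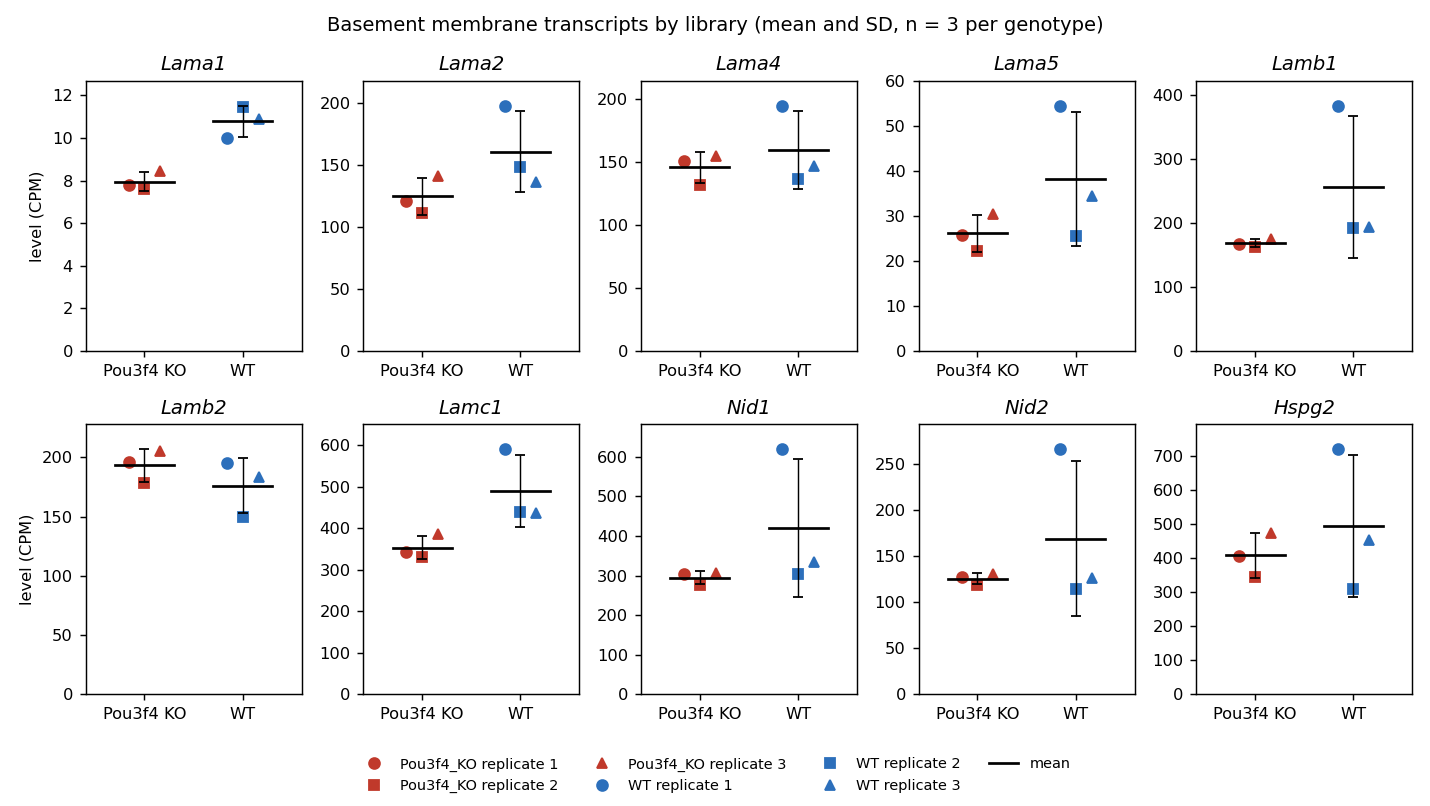
Level of each gene in CPM (y axes, starting at 0) in the 3 Pou3f4 KO and 3 WT libraries, with points for libraries, thick lines for means and bars for the SD. WT replicate 1, the blue circle, is the highest WT library for every gene except Lama1, and the KO libraries lie below all WT libraries only for Lama1, Lamb1 and Lamc1.

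The laminin gamma 1 chain, Lamc1 (ENSMUSG00000026478, mm10 chromosome 1, 153218922 to 153332786, minus strand), is the gamma chain of most laminins and the one that nidogens bind. Its levels were 344, 331 and 386 CPM in KO replicates 1 to 3, against 591, 440.5 and 438 CPM in WT replicates 1 to 3. All KO libraries lay below all WT libraries, with or without WT replicate 1. Lamc1 averaged 354 ± 28.6 CPM in KO and 489.9 ± 87.6 CPM in WT (SD, n = 3 each), with log2 −0.47 between them (SE 0.14, edgeR adjusted p = 0.167), or 1.39-fold lower in KO. Without WT replicate 1 the log2 fold change was −0.33 (adjusted p = 0.0571, edgeR). DESeq2 called Lamc1 lower (adjusted p = 0.0381), the only gene of the 10 it called. It called 4.42% of the 34032 genes with at least 1 count. Its filter leaves genes of low counts without an adjusted p, so the share among genes with an adjusted p was larger.

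Neither beta chain passed the threshold. Lamb1 (ENSMUSG00000002900, chromosome 12, 31265234 to 31329644, plus strand) encodes the beta chain of embryonic and many later laminins. It stood at 167, 163 and 175 CPM in KO replicates 1 to 3, against 384, 192 and 193 CPM in WT replicates 1 to 3. The KO libraries lay close together below all WT libraries, and WT replicate 1 held about the summed level of the other WT libraries. The means were 168 ± 6.17 CPM in KO and 256 ± 110.3 CPM in WT, with log2 −0.61 between them (SE 0.27, edgeR adjusted p = 0.279). That value was −0.21 without WT replicate 1 (SE 0.06, adjusted p = 0.0895, edgeR), so most of its size came with 1 WT library.

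Lamb2 (ENSMUSG00000052911, chromosome 9, 108479736 to 108490530, plus strand) encodes the beta chain of laminins at the neuromuscular synapse and in the kidney filter. Its levels were 196, 178 and 205 CPM in KO replicates 1 to 3, against 195, 149.9 and 183 CPM in WT replicates 1 to 3. The genotypes overlapped, and Lamb2 was the only gene of the 10 whose fold change was above 0, at 0.13 (SE 0.12, adjusted p = 0.568, edgeR). It stayed above 0 under all scalings, filters, tools and left-out libraries tried, from 0.03 without WT replicate 2 to 0.20 without WT replicate 1.

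The share of Lamb1 in the summed beta chains, each as CPM per kilobase of annotated exons, does not depend on library scaling. It was 34.4%, 35.9% and 34.3% in KO replicates 1 to 3, against 54.7%, 44.0% and 39.3% in WT replicates 1 to 3. Every KO library lay below every WT library, and the WT libraries spread widely. The mean was 34.8% ± 0.887 in KO and 46.0% ± 7.90 in WT, a difference of −11.2 percentage points (exact permutation test, two-sided, p = 0.1, the smallest that 3 against 3 libraries allow, and adjusted p = 0.3 over the 6 shares tested). Without WT replicate 1 the difference was −6.81 points.

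**Figure D2:**
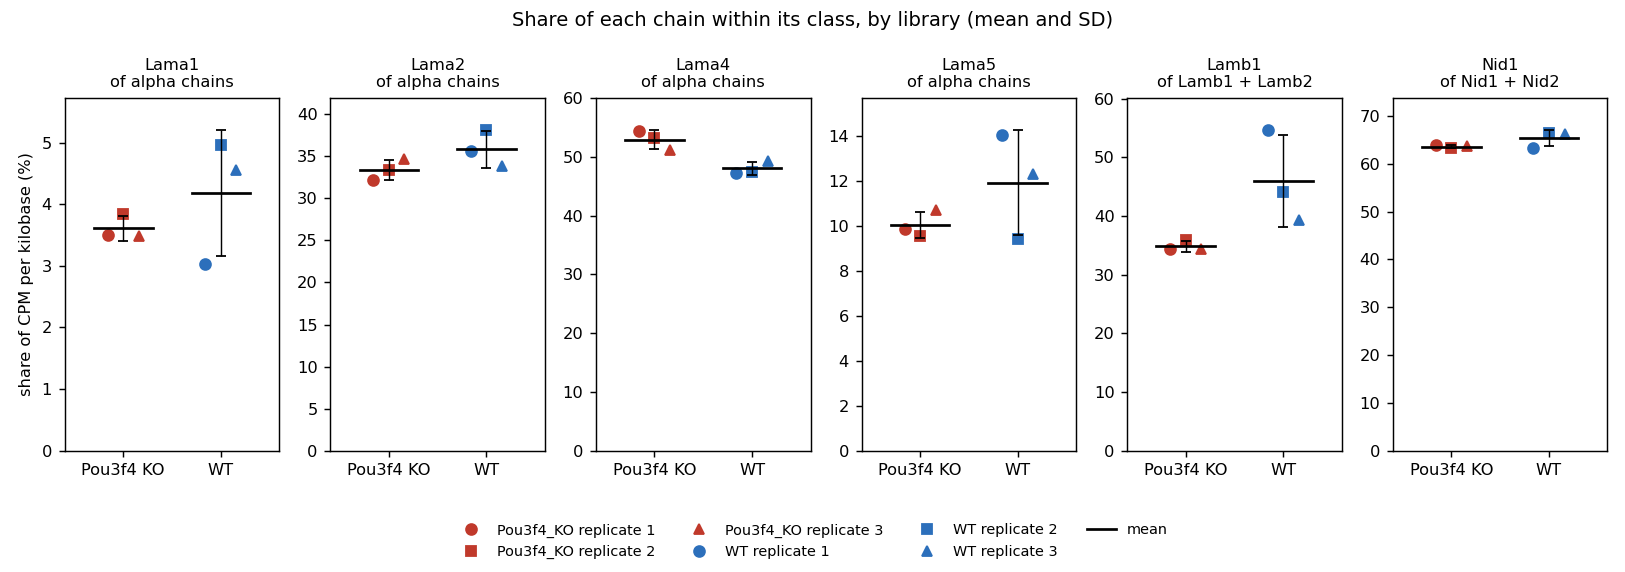
Share of each chain within its class in percent of summed CPM per kilobase (y axes, starting at 0), for the 3 Pou3f4 KO and 3 WT libraries, with lines for means and bars for the SD. The Lamb1 share is lower and the Lama4 share higher in each KO library than in each WT library, and the other 4 shares overlap.

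The promoters of these beta chain genes are shown because all KO libraries had a lower Lamb1 share than the WT libraries. The set of RefSeq promoter sequences used here (build GRCm38.p6) held an entry for 6 of the 10 genes, Hspg2, Lama2, Lama5, Lamb1, Lamb2 and Nid1. The 250 bases before each RefSeq start are printed 5′ to 3′ on the gene's strand, chr12:31265043-31265292 for Lamb1 and chr9:108479612-108479861 for Lamb2, both plus strand. The starts are RefSeq's and lie downstream of the first base of the gene intervals given above. The windows enter those intervals at base 31265234 for Lamb1 and base 108479736 for Lamb2. A longer stretch of the Lamb2 window therefore lies inside its gene interval, and the windows are not alike in this. Capitals mark matches on either strand to the GC box GGGCGG, the letters of the SP1 family's site.
Lamb1: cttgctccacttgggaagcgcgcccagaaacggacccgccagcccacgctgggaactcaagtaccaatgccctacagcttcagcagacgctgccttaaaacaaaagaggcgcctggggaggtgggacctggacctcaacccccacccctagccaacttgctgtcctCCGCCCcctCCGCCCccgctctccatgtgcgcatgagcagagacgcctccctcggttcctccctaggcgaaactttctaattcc
Lamb2: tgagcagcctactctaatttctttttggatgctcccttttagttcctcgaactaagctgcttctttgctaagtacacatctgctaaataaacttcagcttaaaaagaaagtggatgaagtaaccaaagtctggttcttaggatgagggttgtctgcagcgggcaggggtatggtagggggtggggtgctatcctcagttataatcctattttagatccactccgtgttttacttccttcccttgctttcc
The Lamb1 window held 2 GC boxes and 14 CpG dinucleotides at 62% G and C, and the Lamb2 window held no GC box and 3 CpG dinucleotides at 43.6%. Of the 32851 promoter entries, 32.7% held a GC box in these 250 bases. The octamer ATGCAAAT, the site bound by POU-domain proteins, and the TATA box TATAAA, searched on both strands, had no match in any of the 6 windows. The octamer was found in 1.60% of all entries and the TATA box in 12.4%. A match or its absence is a description of these letters only.

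The alpha chains set where a laminin is found and which receptor it binds. Lama1 (ENSMUSG00000032796, chromosome 17, 67697259 to 67822647, plus strand), the alpha chain of the first embryonic basement membranes, was the scarcest of the 10, with 156 to 179 counts in KO and 179 to 220 in WT. Its levels were 7.79, 7.63 and 8.44 CPM in KO replicates 1 to 3, against 10.0004, 11.5 and 10.9 CPM in WT replicates 1 to 3. The groups did not overlap, and Lama1 was the only gene of the 10 for which WT replicate 1 was the lowest WT library. The means were 7.95 ± 0.429 CPM in KO and 10.8 ± 0.739 CPM in WT, with log2 −0.44 between them (SE 0.13, edgeR adjusted p = 0.164), or 1.36-fold lower in KO. Without WT replicate 1 it was −0.50 (adjusted p = 0.0524, edgeR).

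Lama2 (ENSMUSG00000019899, chromosome 10, 26980036 to 27619758, minus strand) is the alpha chain of skeletal muscle and Schwann cells, and its loss causes muscular dystrophy. Its levels were 121, 112 and 142 CPM in KO replicates 1 to 3, against 198, 149 and 136 CPM in WT replicates 1 to 3. KO replicate 3 lay above WT replicate 3, so the groups overlapped. KO over WT was log2 −0.37 (SE 0.16, edgeR adjusted p = 0.275) and −0.20 without WT replicate 1. Opposite-strand exons of Gm48084 overlap 3.86% of the Lama2 exons. Schwann cell markers summed to 3499 to 3955 CPM in KO, against 4695, 8924 and 8001 CPM in WT replicates 1 to 3, with 3 of the 12 tested lower and called by edgeR (7 with DESeq2, 12 without WT replicate 1, and 0 without WT replicate 3, without any 1 KO library, with Xist as a term or with no scaling factor). Skeletal muscle markers summed to 68.5, 801 and 69.5 CPM in KO replicates 1 to 3, against 6243, 208 and 9771 CPM in WT replicates 1 to 3. The part of these cells in the Lama2 levels was not tested.

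Lama4 (ENSMUSG00000019846, chromosome 10, 38965515 to 39110188, plus strand), the alpha chain of vessels and of peripheral nerve, had 151, 132 and 154 CPM in KO replicates 1 to 3, against 194, 137 and 147 CPM in WT replicates 1 to 3. The groups overlapped, and the difference of log2 −0.13 (SE 0.15, edgeR adjusted p = 0.661) was 0.03 without WT replicate 1. As a share of the summed alpha chains per kilobase, Lama4 made up 54.4%, 53.2% and 51.2% in KO replicates 1 to 3, against 47.3%, 47.5% and 49.3% in WT replicates 1 to 3. The share was higher in every KO library than in any WT library. The difference was 4.90 percentage points (exact permutation test, two-sided, p = 0.1, adjusted p = 0.3), and 4.17 to 5.78 points with any 1 library left out. Endothelial markers summed to 735 to 796 CPM in KO, against 969, 720 and 728 CPM in WT replicates 1 to 3, and 0 of the 12 passed the threshold by edgeR (2 at an unadjusted p under 0.05, and 1, Vwf, with DESeq2). The part of vessel cells in the Lama4 level was not tested.

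Lama5 (ENSMUSG00000015647, chromosome 2, 180176373 to 180225859, minus strand), the alpha chain of most mature epithelia and vessels, had 25.8, 22.3 and 30.5 CPM in KO replicates 1 to 3, against 54.6, 25.6 and 34.6 CPM in WT replicates 1 to 3. The groups overlapped, since KO replicates 1 and 3 lay above WT replicate 2. KO over WT was log2 −0.55 (SE 0.28, edgeR adjusted p = 0.329) and −0.21 without WT replicate 1. Its share of the alpha chains was 10.05% ± 0.593 in KO and 11.9% ± 2.35 in WT, and that of Lama2 was 33.4% ± 1.20 in KO and 35.9% ± 2.18 in WT. The libraries overlapped in both shares.

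Neither nidogen passed the threshold. Nid1 (ENSMUSG00000005397, chromosome 13, 13437551 to 13512269, plus strand) had 303, 276 and 306 CPM in KO replicates 1 to 3, against 619, 304 and 334 CPM in WT replicates 1 to 3. Nid2 (ENSMUSG00000021806, chromosome 14, 19751265 to 19811787, plus strand) had 128, 119 and 130.4 CPM in KO replicates 1 to 3, against 267, 115 and 126 CPM in WT replicates 1 to 3. For both genes the KO libraries lay at the level of WT replicates 2 and 3, and WT replicate 1 was far above them. The log2 fold changes were −0.51 for Nid1 (SE 0.27, adjusted p = 0.345, edgeR) and −0.43 for Nid2 (SE 0.31, adjusted p = 0.484, edgeR). Without WT replicate 1 they were −0.13 for Nid1 and 0.05 for Nid2. Nid1 made up 63.6% ± 0.271 of the summed nidogens per kilobase in KO and 65.4% ± 1.70 in WT (difference −1.77 points, exact permutation p = 0.3, adjusted p = 0.4). Exons of Rtraf on the opposite strand overlap 8.45% of those of Nid2, and those of Gm48682 overlap 2.06% of those of Nid1. Whether reads were counted by strand is not given, so these levels may hold some reads of the neighbours.

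Perlecan, Hspg2 (ENSMUSG00000028763, chromosome 4, 137468769 to 137570630, plus strand), had 406, 344 and 474 CPM in KO replicates 1 to 3, against 721, 309 and 453 CPM in WT replicates 1 to 3. WT libraries were both the highest and the lowest of the 6. KO over WT was log2 −0.28 (SE 0.30, edgeR adjusted p = 0.640) and 0.08 without WT replicate 1, so its direction rested on that library.

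**Figure D3:**
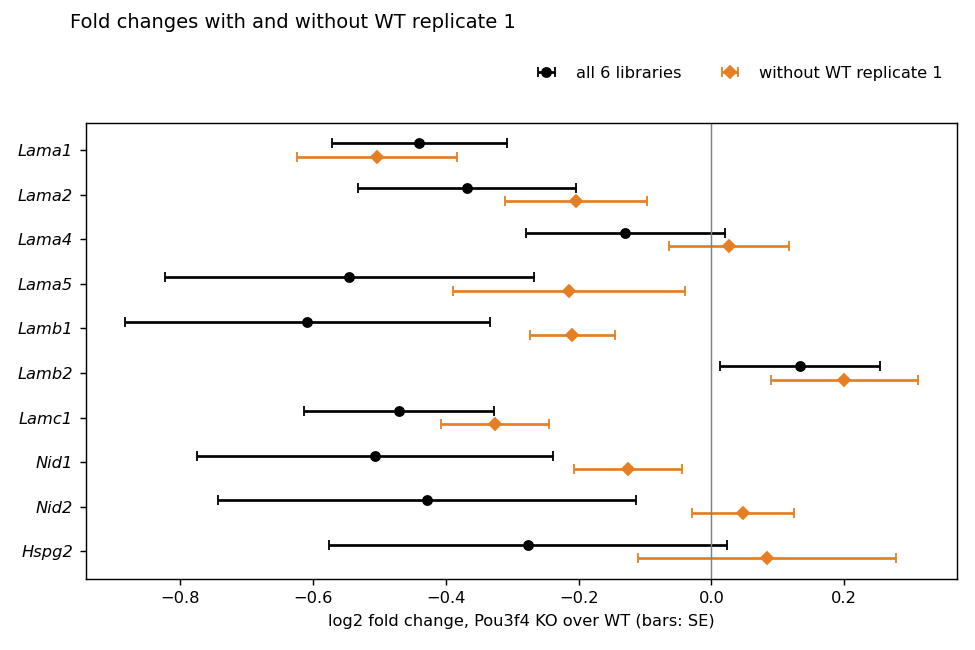
Log2 fold change of Pou3f4 KO over WT (x axis) for each gene, with bars for the SE, from edgeR on all 6 libraries (black) and without WT replicate 1 (orange). Without that library Lama4, Nid2 and Hspg2 lie at 0.03, 0.05 and 0.08, Lama1 and Lamc1 stay at −0.50 and −0.33, and Lamb2 is above 0 both ways.

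WT replicate 1 set much of the spread within WT. Its level was 2.21 times the mean of WT replicates 2 and 3 for Nid2, 1.99 times for Lamb1, 1.94 times for Nid1, 1.89 times for Hspg2 and 1.81 times for Lama5. The ratio was 1.35 to 1.39 for Lamc1, Lama4 and Lama2, 1.17 for Lamb2 and 0.895 for Lama1. A ratio of 1.3 or more was found for 8 of the 10 genes and for 15.9% of the 14144 genes with a mean of at least 5 CPM. The coefficient of variation was 6.85% to 49.9% over the WT libraries and 3.67% to 15.9% over the KO libraries, and it was larger in WT for each of the 10. The share of all genes with a larger value in WT is not given here, so this is not shown to be particular to the 10. The summed type IV collagen chains were at 1.95 times in the same library, although only 2 of the 6 chains were above the mean of the others there.

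Markers of other cells also differed in WT replicate 1. Fibroblast and perineurial markers summed to 11890 CPM there, against 3536 and 3477 CPM in WT replicates 2 and 3 and 4175 to 4342 CPM in KO. The list was uneven, with 7 of the 10 markers above the mean of the other WT libraries, among them Col3a1 at 5.24 times and Dpt at 9.07 times. Slc2a1, Itgbl1 and Moxd1 were below it, at 0.961, 0.833 and 0.748 times. Pericyte and smooth muscle markers summed to 736 to 761 CPM in KO and to 1636, 797 and 1175 CPM in WT replicates 1 to 3. Inner ear and Schwann cell markers ran the other way, at 0.434 and 0.555 times the mean of the other WT libraries. Between the genotypes, osteoblast markers summed to 81057 to 90726 CPM in KO and to 40361 to 49659 CPM in WT, and cartilage markers to 6477 to 7312 CPM in KO and to 10522 to 11409 CPM in WT. No marker of these lists was at 0 in any library, and their part in the levels of the 10 genes was not tested.

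**Figure D4:**
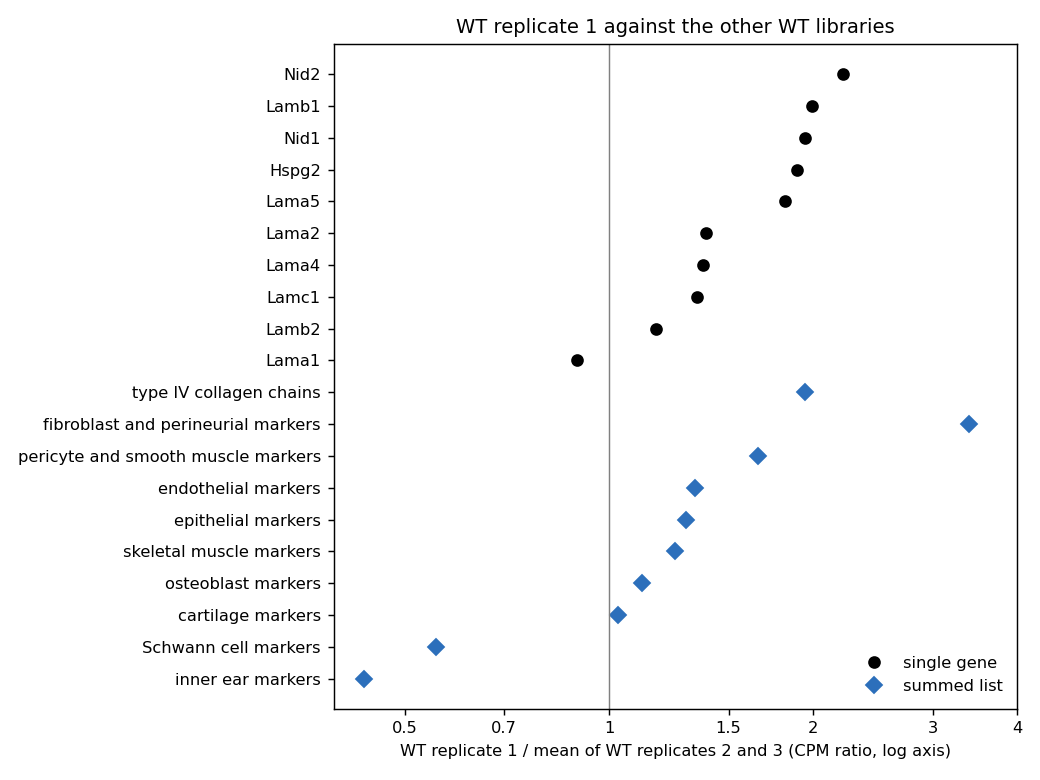
Ratio of WT replicate 1 to the mean of WT replicates 2 and 3 (x axis, log scale) for each of the 10 genes (black circles) and for summed lists of type IV collagen chains and cell type markers (blue diamonds). The genes run from 0.895 for Lama1 to 2.21 for Nid2, and the fibroblast and perineurial list lies at 3.39.

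The libraries were also compared within each class of sex-linked reads. Among the 4 libraries with Xist, a comparison added after the data were seen, all 10 fold changes had the sign of the full fit, with −0.77 for Lamb1, −0.52 for Lamc1 and 0.15 for Lamb2, and 0 genes of the whole table passed by edgeR (1451 at an unadjusted p under 0.05). In the pair with Y-linked reads, which has no replicate, Lama4 (0.04) and Nid2 (0.02) had the opposite sign to the full fit, and the log2 ratio was −0.48 for Lama1, −0.35 for Lamc1 and −0.21 for Lamb1. WT replicate 1 is among the libraries with Xist and is not in this pair. The class of sex-linked reads and the presence of WT replicate 1 therefore cannot be told apart here.

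Per kilobase of exons, levels can be set side by side between genes. In KO the order was Lamc1 (42.8 ± 3.46 CPM per kilobase), Nid1 (42.5 ± 2.40), Lamb2 (31.8 ± 2.26), Hspg2 (28.5 ± 4.55), Nid2 (24.3 ± 1.15), Lamb1 (17.0 ± 0.622), Lama4 (12.1 ± 1.02), Lama2 (7.63 ± 0.938), Lama5 (2.30 ± 0.361) and Lama1 (0.821 ± 0.0443). In KO, Lamc1 and Nid1, Lamb2 and Hspg2, and Hspg2 and Nid2 overlapped within 1 SD. In WT, Nid1 (60.4 ± 25.1 CPM per kilobase), Lamc1 (59.2 ± 10.6), Hspg2 (34.6 ± 14.6), Nid2 (32.7 ± 16.3), Lamb2 (28.9 ± 3.85) and Lamb1 (25.9 ± 11.1) came first. Of these, Nid1 overlapped Lamc1, Hspg2, Nid2 and Lamb1 within 1 SD. Lamc1 also overlapped Hspg2 and Nid2, and the last 4 overlapped each other. Lama4, Lama2, Lama5 and Lama1 followed in WT in the same order as in KO. Summed by class, alpha chains stood at 22.8 ± 2.27 CPM per kilobase in KO and 27.5 ± 5.68 in WT, and beta chains at 48.7 ± 2.86 in KO and 54.8 ± 14.1 in WT. The choice of length mattered. With the longest transcript as the length, alpha chains summed to 40.2 ± 3.87 CPM per kilobase in KO and 47.6 ± 9.58 in WT, Lama4 stood at 24.1 ± 2.03 in KO and 26.3 ± 5.12 in WT, Lama2 at 12.97 ± 1.59 in KO and 16.7 ± 3.41 in WT, and Lamb1 at 29.1 ± 1.07 in KO and 44.3 ± 19.1 in WT. Lamb1 was then the fourth in KO and the third in WT, in place of the sixth in both, Lamb2 was the sixth in WT in place of the fifth, and Nid1 came before Lamc1 in KO.

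The other laminin chains fall outside the 10 genes. A list of 4 of them was tested, 0 passed by edgeR (0 at an unadjusted p under 0.05, and 0 with DESeq2), and all 4 fold changes were below 0 with a median of −0.58. The median was −0.23 without WT replicate 1, where the summed list was at 1.71 times the mean of the other WT libraries. Lamc3, a gamma chain of the nervous system and retina whose exons Gm13441 overlaps over 6.27% on the opposite strand, stood at 11.4 ± 1.08 CPM in KO and 13.9 ± 1.60 CPM in WT. Of the 6 type IV collagen chains, the network that nidogens join to laminin, 0 passed by edgeR (0 at an unadjusted p under 0.05, 0 with DESeq2), and the median was −0.28, or 0.04 without WT replicate 1. Col4a1 stood at 585 ± 36.4 CPM in KO and 723 ± 379 CPM in WT, and Col4a2 at 366 ± 28.7 CPM in KO and 459.99 ± 189.6 CPM in WT. WT replicates 1 to 3 held 1159, 474 and 536 CPM of Col4a1 and 676, 320 and 384 CPM of Col4a2, so both WT means were raised by WT replicate 1.

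Among 11 genes of laminin-binding receptors, 1 was higher and 1 lower past the threshold, and 4 fold changes were above 0 and 7 below. At an unadjusted p under 0.05 by edgeR there were 8 of the 11, beside 19.6% of all genes tested. The libraries of the genotypes did not overlap for 8 (2 above and 6 below WT in KO), beside 27.7% of all genes. DESeq2 called 1 higher and 6 lower (Itga2, Itga3, Itga6, Itga7, Itgb4, Dag1 and Bcam), and edgeR without WT replicate 1 called 2 higher and 5 lower (Itga2, Itga3, Itga6, Itga7, Itgb1, Itgb4 and Bcam). Itga2, the integrin alpha 2 chain, which with beta 1 binds collagens and laminins, had 79.7, 75.0 and 86.6 CPM in KO replicates 1 to 3, against 46.1, 51.3 and 41.4 CPM in WT replicates 1 to 3. It rose 1.74-fold (log2 0.80, SE 0.10, adjusted p = 0.0490, edgeR). Bcam, the Lutheran glycoprotein and a receptor for the laminin alpha 5 chain, had 56.5, 58.0 and 62.5 CPM in KO replicates 1 to 3, against 87.9, 100.2 and 87.2 CPM in WT replicates 1 to 3. It fell 1.55-fold (log2 −0.64, SE 0.09, adjusted p = 0.0490, edgeR). For both genes the genotypes were separate, and WT replicate 1 lay with the other WT libraries. Schwann cell markers, given above, differed in the same direction as Bcam, and their part was not tested. Both calls were lost without any 1 KO library (adjusted p of 0.271 to 0.357, edgeR) or without WT replicate 3 (0.136), with fold changes of 0.72 to 0.85 for Itga2 and −0.60 to −0.68 for Bcam. They were also lost with no scaling factor (edgeR adjusted p = 0.0594) and with Xist as a term (0.145), and that of Bcam with upper-quartile scaling (0.0516) and limma-voom (0.0537).

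Other receptors were chosen after their values were seen. Itga7, the laminin-binding integrin of muscle, stood at 11.7 ± 1.15 CPM in KO and 34.1 ± 15.6 CPM in WT (log2 −1.54, adjusted p = 0.0986, edgeR), and muscle markers differed between the same libraries as given above. Itgb4, the partner of integrin alpha 6 under epithelia and in Schwann cells, stood at 10.4 ± 0.685 CPM in KO and 23.6 ± 11.7 CPM in WT (log2 −1.19, adjusted p = 0.150, edgeR). Dystroglycan, Dag1, stood at 243 ± 9.41 CPM in KO and 328 ± 49.3 CPM in WT (log2 −0.43, adjusted p = 0.157, edgeR). DESeq2 called these 3 genes lower, and edgeR called Itga7 and Itgb4, but not Dag1 (adjusted p = 0.0709), without WT replicate 1.

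Of 13 genes of the dystrophin-glycoprotein complex, which ties dystroglycan to the cytoskeleton, 0 passed by edgeR (5 at an unadjusted p under 0.05, and 2, Dmd and Sntb1, with DESeq2), with a median of −0.43. The median was −0.27 without WT replicate 1, when 1 gene, Dmd, was called lower, and without WT replicate 2 there were 4 (Dmd, Sntb1, Sgca and Sspn). Skeletal muscle markers had a median log2 fold change of −4.21 between the same libraries, with 0 of 13 called by edgeR (6 at an unadjusted p under 0.05, and 2 with DESeq2), and their part in the levels of this complex was not tested. Utrophin, Utrn, stood at 138 ± 14.7 CPM in KO and 148 ± 6.58 CPM in WT, and Sntb2 at 69.5 ± 4.92 CPM in KO and 79.4 ± 19.6 CPM in WT. Of 13 enzymes that build the laminin-binding sugars of dystroglycan, 0 passed by edgeR (2 at an unadjusted p under 0.05, 0 with DESeq2), and the median was −0.03, or −0.09 without WT replicate 1, when 2 were called lower, and up to 0.07 with another library left out. Pomgnt1, overlapped over 11.7% by Lurap1, stood at 51.2 ± 0.4998 CPM in KO and 55.1 ± 3.26 CPM in WT. Of 21 tested genes of other basement membrane proteins, 0 passed by edgeR (6 at an unadjusted p under 0.05, and 4 with DESeq2), with a median of −0.25. The median was 0.0049 without WT replicate 1, when 2 genes were called higher and 3 lower. Sparc, a calcium-binding matrix protein that binds collagens, stood at 12581 ± 198 CPM in KO and 8895 ± 251 CPM in WT (log2 0.50, SE 0.08, adjusted p = 0.0599, edgeR). It passed in edgeR fits with a filter of 1 CPM (0.0452), without WT replicate 1 (0.00637) and without WT replicate 2 (0.0417), and with DESeq2, and its adjusted p was 0.136 to 0.415 with any other library left out. Osteoblast markers, given above, differed in the same direction as Sparc, and their part was not tested. Nephronectin, Npnt, stood at 297 ± 22.8 CPM in KO and 299 ± 57.0 CPM in WT.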

How the data were processed

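Per the labels' protocols, RNA came from a TRIzol extraction and libraries from a stranded TruSeq mRNA kit. The authors deposited whole-number read counts per gene, not normalised. HTSeq, HISAT2, Trimmomatic and Cufflinks, and the build mm10, are listed in the submitters' processing notes; the sources used here give no versions, annotation or strand setting. From these counts, genes were kept with filterByExpr (minimum count 10), scaled by TMM and tested with edgeR 4.0.16 (glmQLFit, glmQLFTest, genotype alone, all 6 libraries). P-values were adjusted by Benjamini-Hochberg over the 19687 genes tested, with a threshold of 0.05. SE is the fold change over the square root of F. Shares used exon lengths of GENCODE M21 (same build and, for the 10 genes, identical coordinates) and exact permutation tests (SciPy 1.17.1). DESeq2 1.42.0 and limma 3.58.1 (voom) were alternatives, beside other scalings, filters, the replicate number, Xist as a term and each library left out. The scripts were tested on simulated data. Pathway genes named are those past the threshold, otherwise the 2 with the highest mean; some are not reported here. Members, lists and tests were chosen with earlier results of these data known.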

Additional observations from a re-analysis of the deposited data

How the results depend on the processing

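The number of the 10 genes past the threshold was 0 under every scaling, filter, tool and left-out library tried except DESeq2, with 1 (Lamc1). The number of all genes past it, 78 with all libraries, was 7 with no scaling factor, 1505 with DESeq2, 0 with Xist as a term (3185 at an unadjusted p under 0.05, edgeR), 0 among the libraries with Xist, and 0 to 1814 with 1 library left out. With the replicate number as a block, 1 gene passed. Deviations of same-numbered libraries from their group correlated at −0.13, −0.29 and −0.19, and those of differently numbered libraries at −0.08 to 0.24. With 3 libraries per group these values cannot show whether the numbers pair the libraries, and the labels do not say. With 1 library left out, log2 fold changes ran from −0.23 to 0.03 for Lama4, −0.64 to 0.05 for Nid2 and −0.52 to 0.08 for Hspg2. Without WT replicate 1 these reversed to 0.026 (Lama4), 0.048 (Nid2) and 0.084 (Hspg2). The other 7 genes kept their direction under every alternative, and so did the 6 shares. Lama1 had the fewest counts of the 10, 1123 over the 6 libraries.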
